A study of Mus musculus with 8 samples.

Results

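The genes described here make, clear, bind and sense retinoic acid (RA). They were taken by name from the table of gene expression, and all 9 names (Cyp26a1, Aldh1a2, Rdh10, Dhrs3, Rara, Rarb, Rarg, Crabp1 and Crabp2) were found among its 18094 genes. Genes were tested where they averaged 10 normalized counts or more across the 8 libraries, which left 8 of these 9 genes and 15767 genes in all. Rarb did not pass and is given by its values only. The mean runs over all groups, so a gene that is high in a single group can pass through that group alone.

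The study asked what the loss of acetylation at lysine 20 of CTCF, a DNA-binding protein that shapes chromatin loops, does to gene expression as mouse embryonic stem cells (mESCs) leave pluripotency. RNA-seq was made of WT and CTCF-K20R cells of the male E14Tg2A mESC line on day 0, grown on inactivated mouse fibroblast feeders with LIF and kinase inhibitors, and of embryoid bodies (EBs) of both genotypes on day 4 of differentiation in hanging drops, in serum without LIF. CTCF-K20R cells carry arginine in place of lysine 20, introduced by CRISPR/Cas9 with a donor vector and drug selection. The sources used here do not say from how many clones the CTCF-K20R libraries came. There were 2 libraries in each of the 4 groups. Both genotypes share the line, the feeders and the differentiation protocol.

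RA is made from retinol in a pair of oxidation steps, the first reversible, and is broken down by CYP26 enzymes. It acts through nuclear RA receptors (RARs), which bind DNA as partners of retinoid X receptors at direct repeats of a short motif, and the CRABP proteins carry it inside the cell. In the early embryo, RA made in mesoderm and degraded at the ends of the axis sets the positional identity of neural and mesodermal tissue, with Hox genes among its known targets.

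The normalized counts of a library summed to between 19412659 and 21311513, and 3 reads, taken as the limit of detection, corresponded to 2.43 to 3.43 normalized counts. The 10 most abundant genes held 5.40% to 6.99% of a library. The WT libraries of each day differed from each other by less than the sampling noise of reads: the mean squared difference over genes was 0.315 (day 0) and 0.278 (day 4) of that for independently drawn reads, against 4.00 and 4.37 for the CTCF-K20R pairs. Each WT pair was therefore averaged and counted as 1 sample, and WT had no replicate error of its own in the tests. The study describes the libraries of a group as biological replicates from independent experiments. The p-values rest on the spread within the CTCF-K20R pairs, pooled over both days and drawn toward that of other genes of like level.

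The windows before the transcription starts of Cyp26a1 and Rarb are shown first, because both hold the classical RAR element, a direct repeat of 6 bases with 5 bases between (DR5, in capitals). Both are the 250 bases before the start in RefSeq on GRCm38.p6, written 5′ to 3′ along the gene, Cyp26a1 at chr19:37697558-37697807 on the + strand and Rarb at chr14:16575477-16575726 on the - strand.
Cyp26a1: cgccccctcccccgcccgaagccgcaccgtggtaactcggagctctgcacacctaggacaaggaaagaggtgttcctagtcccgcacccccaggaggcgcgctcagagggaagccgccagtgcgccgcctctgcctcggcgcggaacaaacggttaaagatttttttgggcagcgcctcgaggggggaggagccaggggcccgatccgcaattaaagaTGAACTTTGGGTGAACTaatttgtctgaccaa
Rarb: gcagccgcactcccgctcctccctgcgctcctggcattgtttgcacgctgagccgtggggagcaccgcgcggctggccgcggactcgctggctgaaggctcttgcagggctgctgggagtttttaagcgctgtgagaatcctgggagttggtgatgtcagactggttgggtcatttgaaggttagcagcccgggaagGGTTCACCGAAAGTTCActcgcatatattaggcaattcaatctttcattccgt
The repeated element could be AGGTCA or AGTTCA, or else GGGTCA or GGTTCA, on each side of any 5 bases, and both strands were searched. In Cyp26a1 it lies 32 to 16 bases before the start and reads along the opposite strand. In Rarb it lies 53 to 37 bases before the start. This start lies inside the gene, which spans chr14:16430839-16819156 in GENCODE, and is not its outermost annotated start. Windows of 250 bases before to 50 bases after the start were available for 7 of the 9 members, and no DR5 was found in those of Aldh1a2, Dhrs3, Rara, Rarg or Crabp1. Among all 32851 such windows, 0.0974% held a DR5. Repeats of the same elements with a spacing of 1 or 2 bases were in 0.222% and 0.268% of windows, and in none of the members'. These matches describe the letters of a window and do not show binding.

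On day 4, 6 of the 8 tested members differed between CTCF-K20R and WT by the rule used for differentially expressed genes (DEGs: a log2 fold change beyond 1 in size and an adjusted p under 0.05). Aldh1a2 (an enzyme that makes RA), Cyp26a1 (an enzyme that degrades it) and Crabp1 were lower in CTCF-K20R EBs. Dhrs3, Crabp2 and Rarg were higher. Over all tested genes, 6.89% were DEGs with higher and 8.65% with lower expression in CTCF-K20R, against 3 and 3 of the 8 members. Values of the libraries of WT and CTCF-K20R did not overlap on day 4 for any of the 9 members. That alone singles out nothing, since 85% of all tested genes showed no overlap in either direction. The tests are limma on log2(normalized counts + 1), with Benjamini-Hochberg adjustment over all tested genes. On that scale the change of a weakly expressed gene is understated. In bulk EBs, fewer cells of a type and less RNA per cell cannot be told apart.

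**Figure D1:**
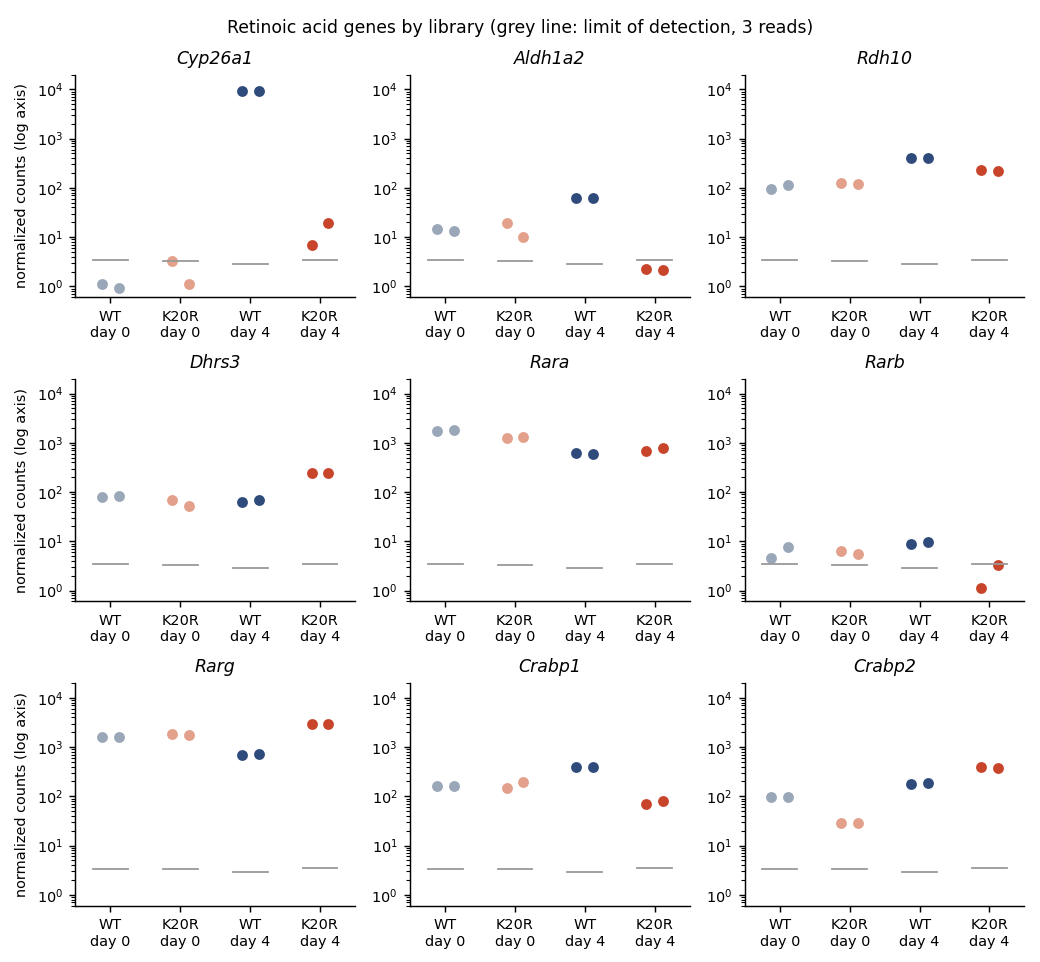
Normalized counts (log axis) of the 9 members in each of the 8 libraries, by genotype and day, with a point per library and a grey line at the largest limit of detection of the group. Cyp26a1 stands at 9398 and 9342 in WT EBs on day 4 and at 6.95 and 19.6 in CTCF-K20R EBs.

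Cyp26a1 showed the widest range of the members. Its product, a cytochrome P450 enzyme, clears RA and is itself a known RA target. On day 0 it stood at 1.13 and 0.946 normalized counts in WT and at 3.25 and 1.11 in CTCF-K20R mESCs. Cyp26a1 was just above the limit of detection (3.23) in CTCF-K20R replicate 1 and under the limit in the other mESC libraries. On day 4 it reached 9398 and 9342 in WT EBs but only 6.95 and 19.6 in CTCF-K20R EBs. Both CTCF-K20R libraries lie far below both WT libraries on day 4. They stand above their limits of detection (3.43 and 3.26), with about 6 and 18 reads. The ratio of means on day 4 was 707-fold (counting interval 470 to 1093, exact binomial, which covers counting error only), and the fitted log2 difference was -9.52 (SE 0.748, limma adjusted p = 0.000523). This rests on about 24 reads of Cyp26a1 in the CTCF-K20R libraries together and about 10664 in the averaged WT sample. Cyp26a1 passed the filter on mean level only through the WT EBs, where it was high, so its tests are not independent of the filter.

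The retinol and retinaldehyde enzymes split by direction. Rdh10, a dehydrogenase of the first oxidation step, stood at 95.7 and 113 in WT and at 123 and 120 in CTCF-K20R mESCs. On day 4 it stood at 405 and 408 in WT against 230 and 219 in CTCF-K20R EBs. Its level was lower by 0.86 on the log2 scale on day 4 (SE 0.163, limma adjusted p = 0.0104), which is short of the fold change of the DEG rule. Aldh1a2, a retinaldehyde dehydrogenase of the second step, stood at 14.7 and 13.2 in WT and at 19.4 and 9.89 in CTCF-K20R mESCs. On day 4 it stood at 63.3 and 62.4 in WT EBs, while both CTCF-K20R libraries, at 2.29 and 2.19, were under the limit of detection with about 2 reads each. The fitted log2 difference was -4.30 (SE 0.563, limma adjusted p = 0.00294), and the ratio of means was 28.1-fold with a counting interval of 10.6 to 107, so the size of the difference is loosely fixed. Dhrs3, a reductase that turns retinaldehyde back into retinol, stood at 80.8 and 81.9 in WT and at 68.3 and 53.3 in CTCF-K20R mESCs. On day 4 it stood at 63.3 and 67.6 in WT and at 243 and 242 in CTCF-K20R EBs, 3.70-fold higher in the mutant (log2 difference 1.87, SE 0.248, limma adjusted p = 0.00303). Without CTCF-K20R replicate 1 or replicate 2 of day 4 its adjusted p was 0.0551 and 0.0539, so this call depends on having both.

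The binding proteins moved in opposite directions. Crabp1 stood at 163 and 165 in WT and at 147 and 196 in CTCF-K20R mESCs. On day 4 it stood at 388 and 397 in WT but at 68.9 and 79.9 in CTCF-K20R EBs, 5.27-fold lower (log2 difference -2.39, SE 0.245, limma adjusted p = 0.00125). Crabp2, which is known to deliver RA to the receptors, stood at 97.7 and 96.7 in WT and at 28.3 and 28.5 in CTCF-K20R mESCs, a 3.42-fold lower level. On day 4 the order was the reverse, with 181 and 183 in WT and 393 and 378 in CTCF-K20R EBs, 2.11-fold higher (log2 difference 1.08, SE 0.201, limma adjusted p = 0.00982). Without CTCF-K20R replicate 1 or replicate 2 of day 4 the adjusted p of Crabp2 was 0.0829 and 0.0760. Per kilobase of exon, Crabp2 made up 22.1% and 21.9% of the summed Crabp1 and Crabp2 level in WT EBs, and 77.6% and 74.1% in CTCF-K20R EBs.

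Of the receptors tested, Rarg was a DEG on day 4 and Rara was not. Rara stood at 1726 and 1785 in WT and at 1229 and 1285 in CTCF-K20R mESCs, and on day 4 at 614 and 588 in WT and at 678 and 791 in CTCF-K20R EBs, where the difference of 0.29 on the log2 scale (SE 0.109) had a limma adjusted p of 0.0884. Rarg stood at 1606 and 1592 in WT and at 1830 and 1717 in CTCF-K20R mESCs. On day 4 it stood at 700.1 and 719 in WT and at 2896 and 2898 in CTCF-K20R EBs, 4.08-fold higher (log2 difference 2.03, SE 0.0627, limma adjusted p = 3.65e-05), so that in mutant EBs Rarg lay above both of its day 0 levels and in WT EBs below them. Rarb, which is known as an RA target, was scarce, with 4.53 and 7.57 in WT mESCs, 6.47 and 5.50 in CTCF-K20R mESCs, 8.70 and 9.79 in WT EBs and 1.14 and 3.29 in CTCF-K20R EBs. Its mean was 4.17-fold lower in CTCF-K20R EBs by ratio of means, with a counting interval of 1.14 to 17.2 on about 10 and 4 reads. Rarb overlaps Top2b and an antisense gene on the opposite strand, and the use of strand in the counting is not given in the sources used here, so these few reads cannot be assigned with certainty. The summed level of the 3 receptors per kilobase of exon was 307 and 305 in WT EBs and 835 and 862 in CTCF-K20R EBs, against 773 and 784 in WT and 712 and 698 in CTCF-K20R mESCs. Rarg made up 53.6% and 55.3% of it in WT EBs and 81.4% and 78.9% in CTCF-K20R EBs.

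**Figure D2:**
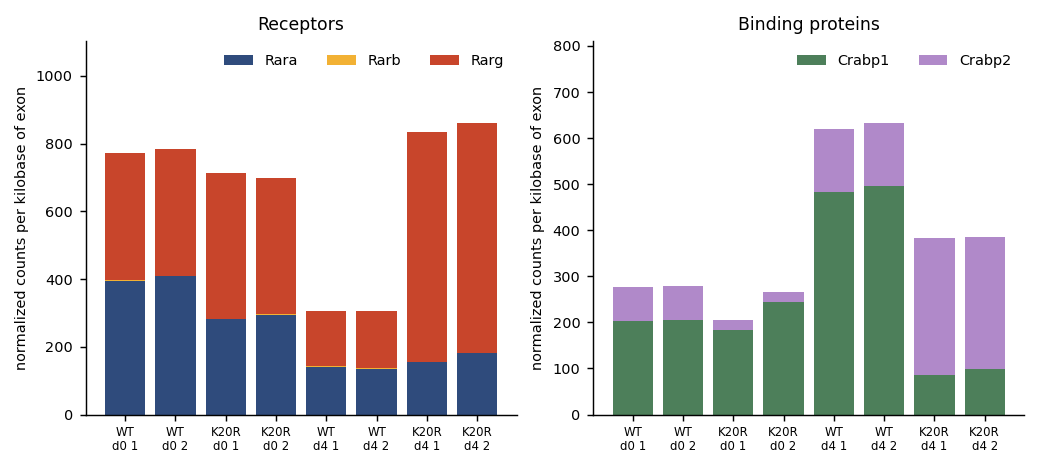
Normalized counts per kilobase of exon of the RARs (left) and of Crabp1 and Crabp2 (right) in each of the 8 libraries, stacked, with d0 and d4 for the days. The receptors sum to 307 and 305 in WT EBs and to 835 and 862 in CTCF-K20R EBs, and Crabp2 exceeds Crabp1 in CTCF-K20R EBs only.

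Levels of different genes were compared per kilobase of merged exons. In WT mESCs the order was led by Rara (402) and Rarg (375), and Crabp1 followed at 205. With the length of the longest transcript, Rarg was instead ahead of Rara in both WT libraries (51.5% and 50.4% of the receptors, against 48.3% and 49.3%), so the order of these 2 is not resolved. In WT EBs Cyp26a1 led at 4725 and Crabp1 came next at 489, while in CTCF-K20R EBs Rarg led at 680 and Crabp2 came next at 291. Rarb was lowest in both groups of EBs, and Cyp26a1 was lowest in both groups of mESCs. In mESCs, however, both were close to or under the limit of detection and their order is not resolved. Nor is that of Rarb and Aldh1a2 in CTCF-K20R EBs, with about 4 reads each. In WT EBs, Crabp2 and Rara (both 138) cannot be separated.

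The question on day 0 was whether the members already differed in pluripotent cells. Of the 8 tested, 1 was a DEG, Crabp2 (log2 difference -1.74, SE 0.201, limma adjusted p = 0.00628), while 1.19% of all tested genes were DEGs with higher and 2.6% with lower expression in CTCF-K20R mESCs. With only the day 0 libraries in the fit, the adjusted p of Crabp2 was 0.0870. Rara was lower by 0.48 with an adjusted p of 0.0400, short of the fold change. For the other 6, log2 differences ran from -0.42 (Dhrs3) to 0.55 (Cyp26a1) with adjusted p-values of 0.176 or more.

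**Figure D3:**
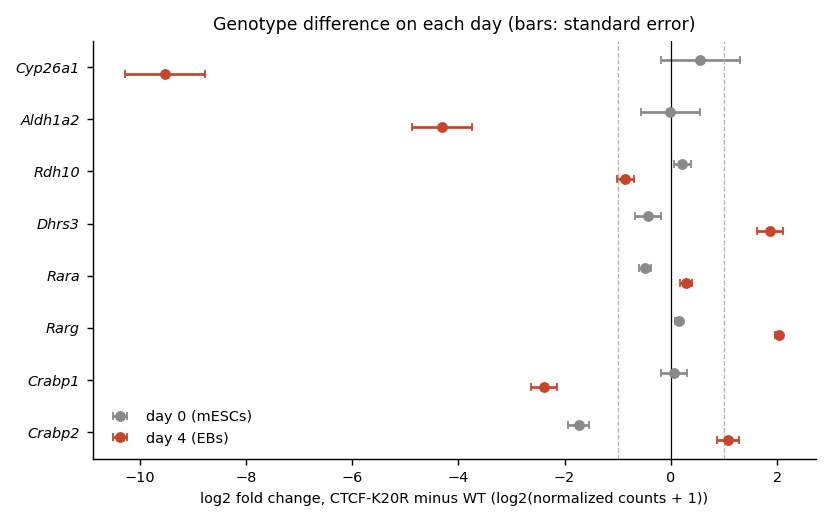
Fitted log2 fold change of the 8 tested members, CTCF-K20R minus WT, on day 0 (grey) and on day 4 (red), with bars of 1 standard error and dashed lines at the DEG fold. Cyp26a1 lies at -9.52 and Rarg at 2.03 on day 4, while on day 0 Crabp2, at -1.74, is the only member beyond a dashed line.

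The test of whether the genotype difference changed between the days was past the DEG rule for 7 of the 8 members, against 12.9% of all tested genes in either direction, and Rara, at 0.77, was short of the fold change. By the adjusted p alone all 8 passed, against 26.6% of all tested genes. The log2 difference on day 4 minus that on day 0 was -10.07 for Cyp26a1, -4.29 for Aldh1a2, -2.44 for Crabp1, 2.81 for Crabp2, 2.30 for Dhrs3, 1.88 for Rarg and -1.07 for Rdh10, with limma adjusted p-values between 0.000261 and 0.0236. For Crabp2 the sign of the genotype difference turned between the days, from -1.74 to 1.08. The number of calls depends on the CTCF-K20R libraries of day 4: without replicate 1 of that group 2 members were past the rule, and without replicate 2, 3 were.

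Within CTCF-K20R cells, 3 members were higher (Cyp26a1, Dhrs3 and Crabp2) and 2 lower (Aldh1a2 and Crabp1) on day 4 than on day 0, where 14.5% of all tested genes were higher and 11.6% lower. The log2 changes were 2.09 for Cyp26a1, 1.99 for Dhrs3, 3.71 for Crabp2, -2.20 for Aldh1a2 and -1.18 for Crabp1, with limma adjusted p-values of 0.0299, 0.000569, 3.05e-05, 0.00902 and 0.00404. The Cyp26a1 change is the weakest of these: its adjusted p was 0.132 without CTCF-K20R replicate 2 of day 0, 0.159 without CTCF-K20R replicate 2 of day 4, 0.0695 without a filter on low values, 0.0809 with quantile normalization and 0.0843 without a trend in the variance. That of Aldh1a2 was 0.0620 and 0.0644 without CTCF-K20R replicate 1 and replicate 2 of day 4, and Crabp1 dropped out without CTCF-K20R replicate 1 of day 4 (0.0646) and, by fold change (-0.98), without replicate 2 of day 0. In WT cells the same interval is a comparison of 1 averaged sample with 1 and has no test. The log2 values were 12.17 for Cyp26a1, 2.09 for Aldh1a2, 1.95 for Rdh10, 1.25 for Crabp1, 0.90 for Crabp2, -0.31 for Dhrs3, -1.17 for Rarg and -1.55 for Rara. With about 1 read of Cyp26a1 in the averaged WT sample of day 0, its fitted value depends on the pseudocount, and the ratio of means was 9017-fold with a counting interval of 1634 to 359613. In CTCF-K20R cells the ratio for Cyp26a1 was 6.09-fold, with an interval of 2.11 to 24.4 on about 4 and 24 reads. Thus Aldh1a2 and Crabp1 were higher on day 4 than on day 0 in WT libraries and lower in CTCF-K20R libraries.

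Further genes of the pathway were described by list. Their counts stand against 6.89% higher and 8.65% lower of all tested genes on day 4. Of 14 tested genes of RA metabolism beyond the members, 1 was a DEG on day 4, Cyp26c1, the neighbour of Cyp26a1 and another RA-degrading enzyme. It stood at 125 and 131 in WT against 5.88 and 1.08 in CTCF-K20R EBs (log2 difference -5.09, limma adjusted p = 0.00973). Cyp26c1 passed the filter on mean level only through the WT EBs, so its call as lower is not independent of the filter. Its adjusted p was 0.0643 with a pseudocount of 0.1, and without CTCF-K20R replicate 1 of day 4 there were 2 DEGs on this list. The median of the list was -0.37, against 0.01 over all tested genes. Of 7 genes of retinoid uptake and carriage, 2 were higher and 1 lower. Lrp2, an endocytic receptor, stood at 273 and 271 in WT against 2519 and 2816 in CTCF-K20R EBs. Rbp7, a retinol carrier, stood at 11.2 and 9.44 against 42.8 and 28.8 (limma adjusted p = 0.0492), and its call was lost without either CTCF-K20R library of day 4 (0.120 and 0.0738) and without WT replicate 2 of day 4 (0.0590). The median of these 7 was -0.59. Of 16 receptor partners and co-regulators, 2 were lower, Nrip1 (log2 difference -1.59) and Rxrg (-1.40), and the median was -0.01. Rxrg had an adjusted p of 0.0358, and of 0.0715 and 0.0987 without CTCF-K20R replicate 1 and replicate 2 of day 4.

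**Figure D4:**
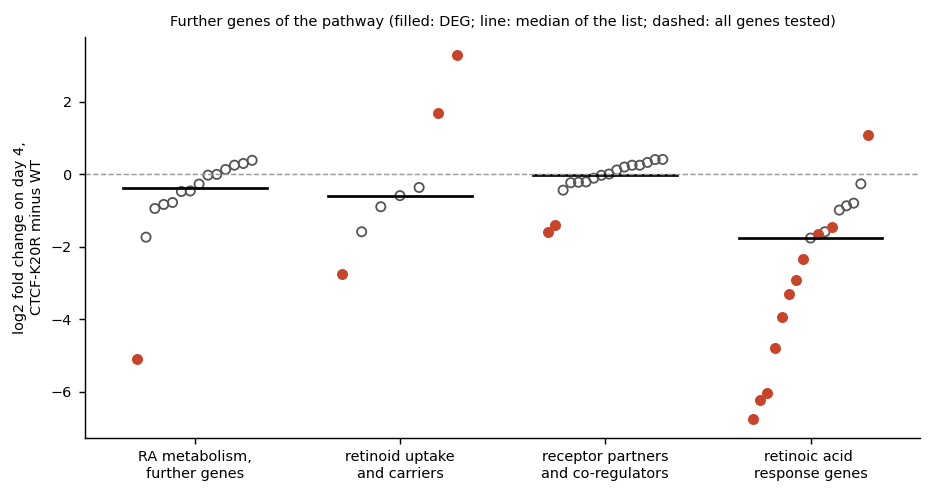
Fitted log2 fold change on day 4 (CTCF-K20R minus WT) of the tested genes of 4 further lists, a point per gene, filled for DEGs, with a line at the median of each list and a dashed line at the median of all tested genes. Response genes centre at -1.76 and receptor partners at -0.01.

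Of 25 listed genes known to respond to RA, 17 passed the filter and were tested. Against 8.65% lower and 6.89% higher over all tested genes, 10 of the 17 were lower and 1 was higher in CTCF-K20R EBs. The median of the 17 was -1.76. Without CTCF-K20R replicate 1 of day 4, 7 were lower and none higher. Hoxa3 was at 108 and 107 in WT EBs and at 0 in both CTCF-K20R libraries, at least 32.1-fold lower when set against 3 reads per library. Zfp703, a zinc finger gene, was at 1421 and 1420 in WT and at 27.7 and 15.8 in CTCF-K20R EBs (log2 difference -6.02). Hoxb2 was at 320 and 312 in WT EBs, and at 16.8 and 0 in the CTCF-K20R libraries, which differ widely (log2 difference -6.23, limma adjusted p = 0.0339, and 0.0668 without CTCF-K20R replicate 2 of day 4). Hoxa3 and Hoxb2 passed the filter on mean level only through the WT EBs, so their calls as lower are not independent of it. The higher gene was Tgm2 (log2 difference 1.08), which codes for a transglutaminase and was named after its value was seen. Its adjusted p was 0.0765 and 0.0715 without CTCF-K20R replicate 1 and replicate 2 of day 4. On day 0, 3 of the 17 were higher (Cdx1 and Meis2 among them, also named after their values were seen) and none lower. Over all tested genes, 1.19% were higher and 2.6% lower on that day.

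Markers of cell types that EBs can hold also differed on day 4, and their part in the members' values was not tested. The shares of all tested genes, 6.89% higher and 8.65% lower, apply to these counts too. Several markers called lower passed the filter on mean level only through the WT EBs, Mesp1, Lhx1, Msgn1, Foxc2, Six3, Sox17 and Postn among them. Those calls are not independent of the filter. Counts of higher and lower markers are of tested genes, while the sum of a list takes in all its genes with values, tested or not. Of 10 primitive streak and nascent mesoderm markers, 9 were lower in CTCF-K20R EBs. They summed to 58750 to 59047 normalized counts in WT and to 3488 to 3552 in CTCF-K20R EBs, where Mesp1, a marker of nascent mesoderm, was at or under the limit of detection. Of 8 paraxial mesoderm markers tested, 7 were lower and 1 higher. The 10 listed summed to 6066 to 6105 in WT against 696 to 767 in CTCF-K20R EBs. Msgn1, Foxc2 and Meox1, which was not tested, were at or under the limit in the mutant. For 9 neural ectoderm markers the sums were 12112 to 12149 in WT and 15243 to 15448 in CTCF-K20R EBs. Otx2 and Zic2, neither a DEG, hold most of both sums, and Pou3f1 (253 and 258, against 3033 and 2921) most of the difference. Of the 9, 4 were higher and 1 lower, with Sox1 at or under the limit in WT EBs. Without CTCF-K20R replicate 1 of day 4, 2 were higher and 1 lower. Of 9 pluripotency markers, 5 were higher and 2 lower (39589 to 39678 and 43855 to 44902). Tdgf1 (23707 and 23669 in WT, 11856 and 11495 in CTCF-K20R) and Pou5f1 (12595 and 12696, 21940 and 21590) hold most of both sums. They differ in opposite directions, so the sums do not describe the other markers. Of 7 visceral endoderm markers, 1 was higher (Amn) and 2 lower (Foxa2 and Sox17), with sums of 4312 to 4344 and 381 to 475. Foxa2 and Sox17, which are also known to mark definitive endoderm, hold most of the WT sum, and the other 5 tested genes summed to 184 to 187 in WT and to 291 to 373 in CTCF-K20R EBs. For this list, without CTCF-K20R replicate 2 of day 4, 1 was lower and none higher. Of 7 fibroblast markers, 2 were higher and 2 lower (1023 to 1046 and 955 to 1036). On day 0, with feeders in the culture, this list summed to 679 to 683 in WT and to 530 to 548 in CTCF-K20R mESCs. Thy1 (465 and 459 in WT, 104 and 103 in CTCF-K20R) and Pdgfrb (131 and 138, 353 and 369) hold most of these day 0 sums. They differ in opposite directions, so the sums do not measure the share of feeders. Without either CTCF-K20R library of day 4, 1 fibroblast marker was higher and 1 lower.

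A DR5 stands in the promoter window of 7 tested genes, Cyp26a1 among them. Of these, 4 were DEGs with lower expression in CTCF-K20R EBs: Cyp26a1, Cfap45 (log2 difference -3.56), Syndig1 (-1.99) and Prokr2 (-1.22). Over all tested genes, 8.65% were DEGs with lower expression. The calls of Syndig1 and Prokr2 were lost without either CTCF-K20R library of day 4 (Syndig1 0.151 and 0.0886, Prokr2 0.115 and 0.145), and that of Prokr2 also without WT replicate 2 of day 4 (0.0742). The other 3 carriers did not pass the DEG rule: Blvrb had a log2 difference of 0.84 (adjusted p = 0.00122) and Gm4631 of 0.81 (0.000206), both above 0 and short of the fold change, and Gm1043 had -0.43 (0.573). The 7 carriers therefore did not share a direction.

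The neighbouring genes on the chromosome were read for each member. Cyp26c1, the next tested gene to Cyp26a1 (chr19:37697798-37701536, + strand, GENCODE release 21 on GRCm38), was a DEG with lower expression, though it passed the filter only through the WT EBs. Myof on the other side had a log2 difference of -0.99 (-1.25 without CTCF-K20R replicate 2 and -1.01 without WT replicate 2 of day 4, both beyond the DEG fold). The next tested gene before Dhrs3 (chr4:144892827-144928209) was Pramef12 (chr4:144391674-144408464), higher by 1.90 on the log2 scale (SE 0.123). The 20 tested genes next in order to Dhrs3, taken equally from both sides, had a median of 0.80 with 6 higher and 1 lower. For the other members, the median of the 20 neighbours lay between -0.19 and 0.13. The next tested gene to Rarb (chr14:16430839-16819156) was Nr1d2 (chr14:18204054-18239127), higher by 1.00. That was 0.93 without CTCF-K20R replicate 1 and 0.98 without WT replicate 2 of day 4, both short of the DEG fold. On the other side, Top2b differed by -0.68. Neighbours are next by order among tested genes, at any distance.

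Genes with the most similar levels over the 6 samples were found by the root mean square difference of mean-centred log2 values, and say nothing of shared function. For Cyp26a1 they were Samd3 (0.656), Klhl6 (0.785) and Lhx1 (0.821). For Aldh1a2 they were Tgfb1 (0.308), Prdm1 (0.329) and Cbln1 (0.391), for Rdh10 Abracl (0.0765), and for Dhrs3 RP23-201A19.2 (0.153) and Gap43 (0.160). For Rara they were led by Abr (0.0583), for Rarg by Deptor (0.0799), Slc35f2 (0.0875) and Tjp3 (0.102), for Crabp1 by Pik3c2b (0.209) and for Crabp2 by Epcam (0.172), a known epithelial adhesion protein.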

How the data were processed

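RNA-seq of WT and CTCF-K20R mESCs (day 0) and EBs (day 4) was used, with 2 libraries in each of 4 groups. The authors trimmed reads with Trim_Galore 0.4.4, quantified mm10 transcripts with salmon 0.9.1, summarized genes with tximport 1.20.0 and normalized with DESeq2 1.10.1. The deposited table gives these normalized counts as a signal for each gene, and no count model was applied to them. The annotation release and the use of strand are not given in the sources used here. All 8 value columns matched a sample by name.

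Values were tested as log2(value + 1) in limma 3.58.1 (R 4.3.3, a mean per group, moderated variance with a trend, Benjamini-Hochberg adjustment). Genes needed a mean of 10 normalized counts. DEGs had to pass 1 in absolute log2 fold change and lie under 0.05 in adjusted p. WT pairs were averaged. All 4 groups entered the fit. The code was tested on simulated data. Reads behind a value were estimated from the step of 1 read at low values. Positions and exon lengths came from GENCODE release 21 (GRCm38), in which 17948 genes matched, and promoter windows from RefSeq (GRCm38.p6). Members and lists were chosen with earlier results of these data known. Of each further list, up to 3 DEGs with the largest day 4 change were named, and up to 3 genes of like pattern (mean of at least 100) per member. Alternatives covered the pseudocount, the filter, quantile normalization, the libraries in the fit, the variance trend, the thresholds, exon length, a replicate block and leaving out each library. Chromatin data of the study were not used here, and some genes of the further lists are not reported here by name.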

Additional observations from a re-analysis of the deposited data

Results flagged for a closer look

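All 8 tested members had a genotype difference that changed between day 0 and day 4 (limma interaction, adjusted p alone, which 26.6% of all tested genes also passed). Rara was short of the fold change of the DEG rule. The change in the CTCF-K20R minus WT log2 difference was -10.07 for Cyp26a1 (adjusted p = 0.00253), -4.29 for Aldh1a2 (0.0150), -1.07 for Rdh10 (0.0236), 2.30 for Dhrs3 (0.00824), 0.77 for Rara (0.0190), 1.88 for Rarg (0.000261), -2.44 for Crabp1 (0.00671) and 2.81 for Crabp2 (0.00225). WT contributes 1 averaged sample per day, so the spread rests on the CTCF-K20R pairs.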

How the results depend on the processing

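The 6 members called on day 4 numbered 4 to 7 over all alternatives, and Dhrs3 and Crabp2 were lost without either CTCF-K20R library of day 4. On day 0, with 1 called, the count was 0 with only the libraries compared and 2 with the adjusted p alone. For the difference between the days, leaving out single libraries gave 2 to 7 against 7. For day 4 against day 0 in CTCF-K20R, leaving out single libraries gave 3 to 5 against 5, and the adjusted p alone gave 8. Directions turned only for small day 0 differences: Aldh1a2 (-0.01) became 0.0059 with a pseudocount of 5, 0.19 with quantile normalization, 0.07 without D0_WT replicate 1 and 0.44 without D0_K20R replicate 2 (leaving out single libraries gave -0.46 to 0.44), and Crabp1 (0.05) became -0.15 without D0_K20R replicate 2 (range -0.15 to 0.26). With the longest transcript in place of merged exons, Rarg was 51.0%, 61.7% and 57.1% of the receptors in WT mESCs, CTCF-K20R mESCs and WT EBs. The cause of these changes was not tested. A group left with 1 library is assumed to vary like the others.

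For the further lists, these settings were added after the data were seen. RA metabolism (1 called) gave 0 with a pseudocount of 0.1, 2 with quantile normalization, 4 with the adjusted p alone and 1 to 2 without single libraries. Receptor partners (2 called) gave 1 with the replicate block and averaged pairs, a pseudocount of 0.1, no filter or an adjusted p under 0.01, 6 with the adjusted p alone and 1 to 2 without single libraries. Response genes (11 called) gave 7 to 11 without single libraries, and the count of uptake genes (3 called) ran from 2 to 4 over these settings.

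Over all genes, day 0 DEGs (188 higher, 410 lower) numbered 23 and 33 without a variance trend, 54 and 92 with only the libraries compared, and 445 and 903 with all 8 libraries as separate samples, and day 4 DEGs (1087 and 1364) numbered 721 and 869 without D4_K20R replicate 1. Same-numbered libraries did not deviate together (correlation -0.044 for CTCF-K20R), so the replicate block is only a check, and with the replicate block 6 members were called on day 4 and 1 on day 0. At the limit of 3 reads, Cyp26a1 on day 0 and both Aldh1a2 and Rarb in CTCF-K20R EBs are not resolved. Rarb was scarce in the other groups too and was not tested.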
